A study of Homo sapiens and Mus musculus with 12 samples.

Results

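Glycolysis genes, hypoxia response genes and MYC network genes that together set how a cell handles glucose were examined in natural killer (NK) cells in which the histone methyltransferase EHMT2 had been removed or inhibited. The set was fixed by a list of 47 human gene symbols, matched to the human table as written and to the mouse table in title case. All 47 were found among the 22021 genes of the mouse table, where GPI is written Gpi1, and 45 among the 18304 genes of the human table. EGLN3 and VEGFA had no row in the human table and were not analysed there.

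Glycolysis splits glucose into pyruvate, which is then reduced to lactate or passed into mitochondria, and the pentose phosphate pathway branches off to make NADPH and ribose. HIF1A is the oxygen-sensitive transcription factor that switches on glucose transporters and glycolytic enzymes, and it is marked for destruction by the EGLN prolyl hydroxylases and VHL. MYC, paired with MAX, drives many of the same enzymes and the machinery of ribosome and polyamine synthesis, and NK cells stimulated by cytokines are known to raise glycolysis. EHMT2, also called G9a, writes dimethylated lysine 9 on histone H3, a mark of silenced chromatin.

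RNA-seq counts came from 12 libraries in 2 experiments. In mice, NK cells were sorted from the spleen of Ehmt2 flox/flox animals (WT, 3 libraries) and of Ehmt2 flox/flox animals carrying Ncr1 iCre (KO, 3 libraries), which deletes in cells that express the NK receptor gene Ncr1, so any other cell in the sort keeps the gene. Both genotypes were on the C57BL/6J background, and the study used mice 8 to 12 weeks old. The human cells were NK92MI, a single NK lymphoma line that makes its own IL-2. They were given BIX-01294 (BIX, 3 libraries), an inhibitor of EHMT2 and its relative EHMT1, or its solvent DMSO (3 libraries). The control columns are named CON while the sample labels say DMSO, so they were matched to the DMSO group and not to single samples. The study used 0.25 uM BIX-01294 for 5 days in its functional assays of these cells, and the dose and time of the sequenced cultures are not given in the sources used here. Nothing in the labels states that replicates were separate animals or cultures, so p-values measure the spread between these libraries, which may be technical.

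Total counts per library ran from 25891680 to 37438868 in mice, where WT replicate 2 was the smallest, and from 16579469 to 17165446 in NK92MI. The genotype label of the KO samples names Ezh2 while their titles name EHMT2, so both genes were read in every library. Levels are given as CPM, counts scaled to a library of 1000000 after TMM normalization. Ehmt2 stood at 171, 143 and 137 CPM in the KO libraries and 275, 284 and 285 CPM in the WT libraries (log2 fold change -0.91 ± 0.10 (SE), adjusted p = 0.0162), with no overlap between groups. Ezh2 stood at 35.0, 39.5 and 38.4 CPM in the KO libraries and 41.6, 44.7 and 45.8 CPM in the WT libraries (log2 fold change -0.23 ± 0.09 (SE), adjusted p = 0.116). Of these 2 genes, Ehmt2 was the one called lower, in counts over the whole gene that include any exon the deletion leaves in place. In NK92MI, EHMT2 itself was lower with the inhibitor, at 40.4, 39.3 and 35.8 CPM in the BIX libraries and 57.1, 61.6 and 54.3 CPM in the DMSO libraries (log2 fold change -0.58 ± 0.08 (SE), adjusted p = 0.000101).

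The mouse groups also differed in the RNA of other cells. CPM summed over 14 macrophage and monocyte markers were 2051 to 3278 CPM in KO and 3157 to 7472 CPM in WT. Of the 14, 12 were lower in KO, 7 were called lower and 1 (Ly6c2) was called higher. The sums over 10 B cell markers were 98.4 to 536 CPM in KO and 571 to 1639 CPM in WT. All 10 were lower in KO and none was called. Over 10 neutrophil markers the sums were 14.8 to 102 CPM in KO and 97.2 to 888 CPM in WT, with 3 of 9 tested called lower. Erythroid markers summed to 99.9 to 132 CPM in KO and 221 to 367 CPM in WT, and all 8 were called lower. The 12 NK cell markers summed to 10779 to 12554 CPM in KO and 5694 to 9587 CPM in WT, with 6 called higher and none called lower. KO replicate 1 held more B cell and neutrophil RNA than the other KO libraries, and WT replicate 2 lay nearer the KO libraries than the other WT libraries did on the NK and macrophage lists. The part of these cells in the mouse results below was not tested, and in bulk samples fewer cells of a type and less RNA per cell cannot be told apart. In NK92MI, 2 of 8 macrophage and monocyte markers and 4 of 6 B cell markers had a row in the table. Over those, the macrophage list summed to at most 5.11 CPM and the B cell list to at most 26.3 CPM in any library. The tested ones, CSF1R, CD79A and PAX5, were each called higher with BIX, as were 18.4% of all genes. The 12 NK cell markers summed to 7586 to 9518 CPM in BIX and 5852 to 6303 CPM in DMSO, with 6 called higher and 4 lower.

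**Figure D1:**
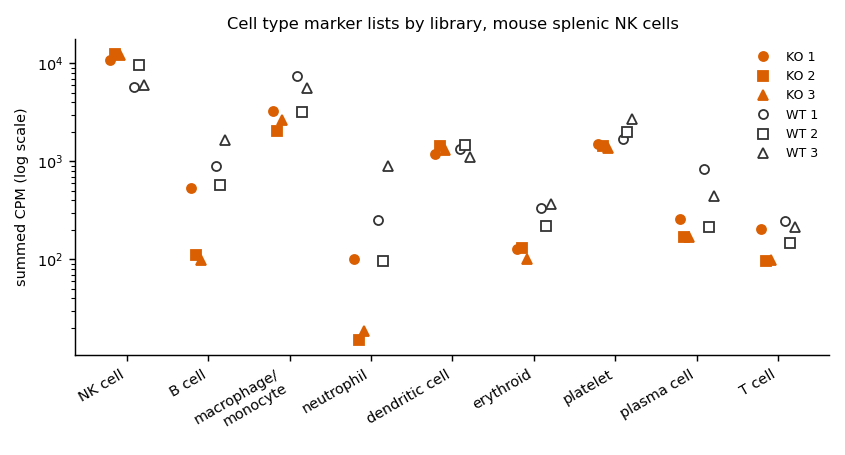
Summed CPM of each cell type marker list in each mouse library on a log axis, KO filled and WT open, with the replicate number given by the symbol. The 3 KO libraries lie above all WT libraries on the NK list and below all of them on the erythroid and platelet lists, while WT replicate 2 sits near the KO libraries on the macrophage and monocyte list.

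Promoters of the human members show which of them carry the letters that HIF and MYC proteins recognise. The HIF core was searched as ACGTG and GCGTG and the E-box bound by MYC and MAX as CACGTG, which holds ACGTG, on both strands of the 300 bases around each start in the RefSeq table of GRCh38.p14. Of the 41 members with a promoter in the table, 27 (65.9%) held ACGTG in at least 1 of their promoters, against 24.9% of all 27305 genes there. Counted by promoter, 31 of 75 (41.3%) held it against 21.4% of all promoters. CACGTG was in 11 of the 41 (26.8%) against 8.77% of all genes, and GCGTG in 24 (58.5%) against 40.6%. The list includes genes long known as targets of these factors, so the shares describe the list and test nothing.

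Some members that moved in opposite directions under the inhibitor carried the same letters. Stretches of 60 bases upstream of a start follow for 2 members that rose, 2 that fell and 2 that were not called, with matches to CACGTG or ACGTG on either strand in capitals. PFKFB3 and MXI1 come first, then HK2 and EGLN2, then LDHA and GAPDH.
PFKFB3, chr10:6202797-6202856, plus strand: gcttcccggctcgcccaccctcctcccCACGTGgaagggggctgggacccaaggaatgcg
MXI1, chr10:110210091-110210150, plus strand: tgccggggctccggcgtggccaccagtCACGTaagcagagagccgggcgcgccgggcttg
HK2, chr2:74834994-74835053, plus strand: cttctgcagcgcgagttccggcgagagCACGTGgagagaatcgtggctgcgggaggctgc
EGLN2, chr19:40799115-40799174, plus strand: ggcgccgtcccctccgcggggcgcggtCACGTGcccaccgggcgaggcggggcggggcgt
LDHA, chr11:18394449-18394508, plus strand: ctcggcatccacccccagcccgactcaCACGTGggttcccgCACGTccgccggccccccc
GAPDH, chr12:6535156-6535215, plus strand: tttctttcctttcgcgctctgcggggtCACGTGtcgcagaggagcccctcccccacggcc
The stretches were taken from promoters with a match, so they do not show how common a match was. By call under the inhibitor, ACGTG was in 6 of 8 members called higher that have a promoter in the table, in 5 of 9 called lower and in 16 of 23 not called. CACGTG was in 1 of 8 called higher, 2 of 9 called lower and 8 of 23 not called, beside 8.77% of all genes. GCGTG was in 5 of 8, 5 of 9 and 14 of 23 in the same order, beside 40.6% of all genes. A match describes the letters in these windows and says nothing of binding.

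In mouse NK cells, most members had a negative log2 fold change and few passed the test. Hk2, Pdk1, Tkt, Taldo1, Hif1a and Npm1 fell, and Mxd4 and Egln2 rose, at an adjusted p under 0.05 in edgeR's quasi-likelihood test over 13189 genes. That was 6 of 47 lower (12.8%) and 2 of 47 higher (4.26%), beside 7.43% and 4.44% of all genes tested. The log2 fold change was negative in 37 of 47 members, with a median of -0.22, against 48.5% negative and a median of 0.01 over all genes. KO and WT libraries did not overlap for 24 members, 18 of them lower in KO and 6 higher, while 19.3% and 19.1% of all genes separated in those directions. Against the mean of the WT libraries, the median member stood at -0.12, -0.24 and -0.20 (log2) in KO replicates 1 to 3 and at 0.02, -0.04 and 0.05 in WT replicates 1 to 3, so the 3 KO libraries lay below all WT libraries.

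The adjusted p-values of the mouse calls lay between 0.0239 and 0.0486, and the smallest over all genes was 0.0116. No member was called without KO replicate 2, KO replicate 3, WT replicate 1 or WT replicate 3, fits in which 0, 0, 99 and 14 genes of all were called. Without WT replicate 2, 5 members were called higher and 12 lower, among 3530 genes of all called. Without KO replicate 1, 2 and 6 were called, among 2032 genes of all. These were not all the same members, since 3 of the main calls were lost and 3 other members were called. The median over the members stayed between -0.25 and -0.19 in these 6 fits. At the study's own thresholds, which ask for an adjusted p under 0.01 together with a change beyond 0.5 on the log2 scale, edgeR called 0% of all genes higher and 0% lower, and hence no member. At an unadjusted p under 0.05 it had 6 members higher and 17 lower, among 2080 and 2639 genes of all. DESeq2 at the study's thresholds called 2 members higher and 3 lower, among 401 and 1098 genes of all.

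**Figure D2:**
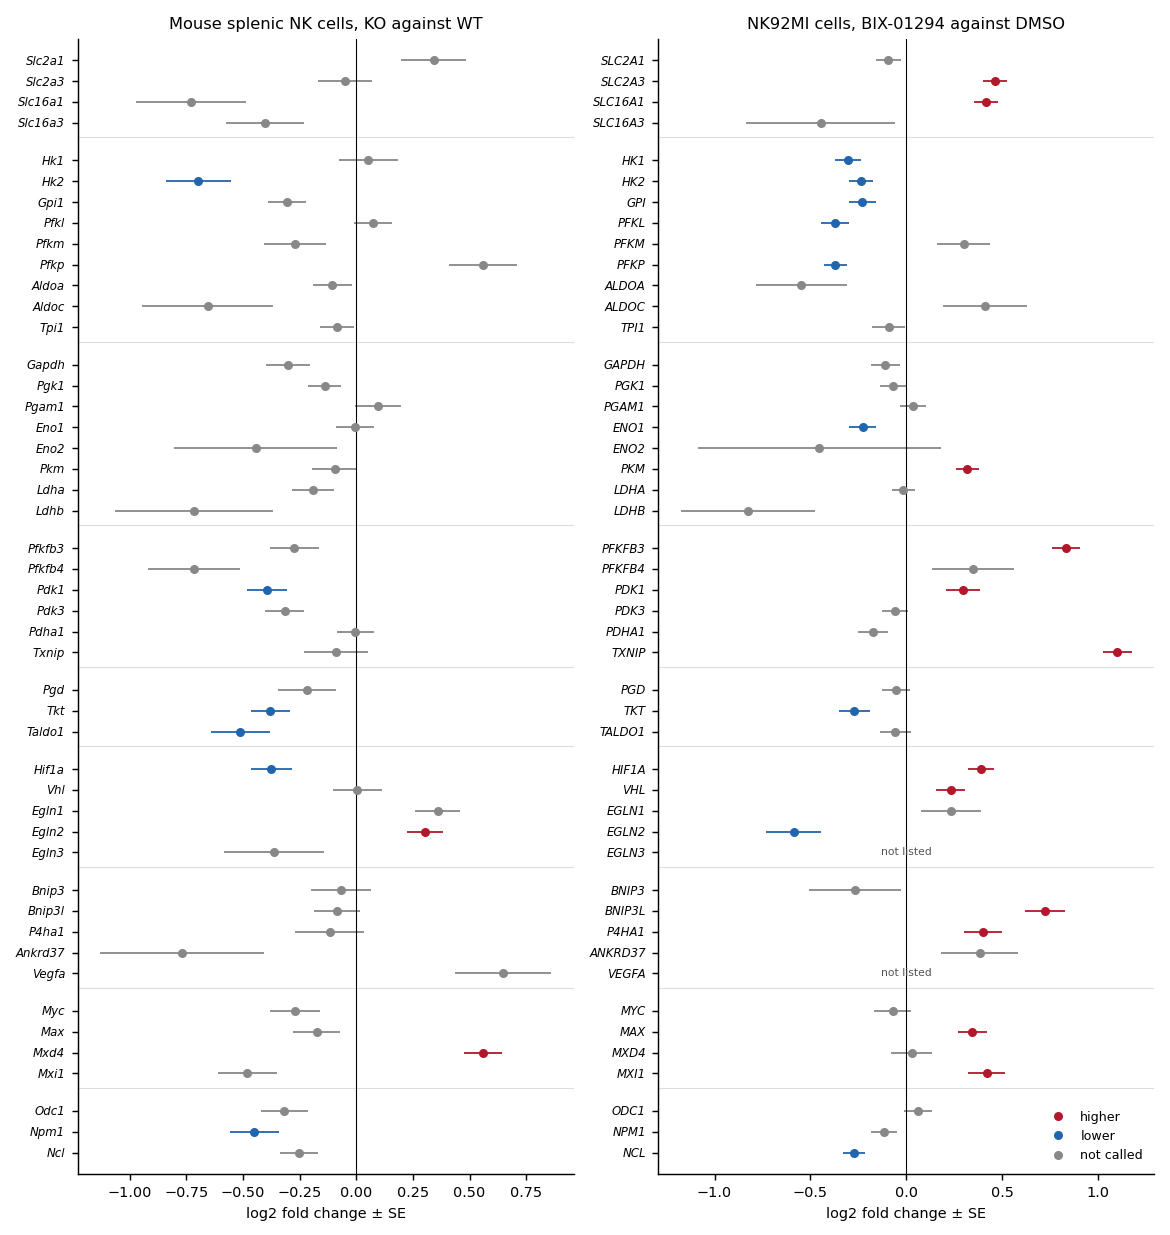
Log2 fold change and its standard error for every member, ordered by role from glucose and lactate transporters at the top to MYC targets at the bottom, in mouse NK cells (left) and NK92MI (right). Red points were called higher and blue points lower at an adjusted p under 0.05, and most mouse points lie left of 0 while the human points spread to both sides.

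Among enzymes of upper glycolysis, the hexokinase Hk2, which traps glucose in the cell as its phosphate and sits at chr6:82725025-82774454 (GRCm38, GENCODE vM21), had 21.0, 16.2 and 17.1 CPM in the KO libraries and 30.3, 25.1 and 32.6 CPM in the WT libraries. Every KO library was below every WT library (log2 fold change -0.70 ± 0.14 (SE), adjusted p = 0.035). Its relative Hk1, the isoform most cells use constitutively, stood at 207, 275 and 252 CPM in the KO libraries and 207, 258 and 243 CPM in the WT libraries, and the groups overlapped (log2 fold change 0.05 ± 0.13 (SE), adjusted p = 0.788). Per kilobase of exon, Hk2 made up 12.6, 7.75 and 8.85% against 17.3, 12.2 and 16.1% of the Hk1 and Hk2 total in KO against WT libraries, shares that overlapped through KO replicate 1 and WT replicate 2.

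Pfkp, the platelet-type phosphofructokinase, was not called, at 221, 270.0 and 257 CPM in the KO libraries and 143, 207 and 158 CPM in the WT libraries (log2 fold change 0.56 ± 0.15 (SE), adjusted p = 0.0507). Its share of the 3 phosphofructokinases per kilobase was 55.1, 57.1 and 58.5% against 42.8, 53.4 and 45.3% in KO against WT, with no overlap, although WT replicate 2 lay close to the KO libraries. Gpi1, which turns glucose-6-phosphate into the fructose form, stood at 499, 515 and 479.8 CPM in the KO libraries and 593, 634 and 621 CPM in the WT libraries (log2 fold change -0.31 ± 0.08 (SE), adjusted p = 0.0528). Of the 9 members of upper glycolysis, 1 was called lower and none higher, and 6 had a negative log2 fold change. Pfkl, Pfkm, Tpi1 and the aldolases Aldoa and Aldoc had log2 fold changes between -0.66 and 0.07 and were not called.

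No member of lower glycolysis passed the test, and 7 of 8 had a negative log2 fold change. Gapdh, the dehydrogenase that opens the payoff steps, stood at 1133, 1053 and 1005 CPM in the KO libraries and 1332, 1269 and 1333 CPM in the WT libraries (log2 fold change -0.30 ± 0.10 (SE), adjusted p = 0.074). All WT libraries were above all KO libraries. Ldha, which makes lactate from pyruvate, had 339.9, 314 and 302 CPM in the KO libraries and 392, 338 and 362 CPM in the WT libraries (log2 fold change -0.19 ± 0.09 (SE), adjusted p = 0.178), with KO replicate 1 above WT replicate 2. Per kilobase of exon, Gapdh had the highest mean of the members in both mouse groups, at 257 ± 15.7 CPM per kilobase in KO and 317 ± 8.89 in WT (SD, n = 3). Taldo1 at 246 ± 34.1 and Txnip at 244 ± 18.6 followed in WT, with spreads that overlapped each other. In KO, Txnip followed at 229 ± 40.4, within its spread of Gapdh and above it in KO replicate 3 (274 against 243 CPM per kilobase). The log2 fold changes of the remaining members of lower glycolysis ran from -0.72 ± 0.35 for Ldhb to 0.10 ± 0.10 for Pgam1.

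Of the 6 flux regulators, 1 was called lower, and 6 of 6 had a negative log2 fold change. Pdk1, a kinase that shuts pyruvate dehydrogenase and so keeps pyruvate from oxidation in mitochondria, had 27.7, 28.6 and 30.4 CPM in the KO libraries and 40.1, 37.2 and 36.6 CPM in the WT libraries, and the groups were apart (log2 fold change -0.39 ± 0.09 (SE), adjusted p = 0.0404). Its relative Pdk3 (-0.32 ± 0.09, adjusted p = 0.052) and the bifunctional enzyme Pfkfb4 (-0.72 ± 0.20, adjusted p = 0.0571), which sets the level of the phosphofructokinase activator, lay just outside the threshold. Txnip, an arrestin-like protein that holds back glucose uptake, had 674, 615 and 857 CPM in the KO libraries and 715, 826 and 741 CPM in the WT libraries (log2 fold change -0.09 ± 0.14 (SE), adjusted p = 0.67). The Txnip groups overlapped, with KO replicate 3 the highest of the 6 libraries. Pfkfb3 (-0.27 ± 0.11, adjusted p = 0.117) and Pdha1 (-0.00 ± 0.08, adjusted p = 0.979) were not called.

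In the pentose phosphate pathway, transketolase and transaldolase, which exchange carbon units between sugars in the non-oxidative arm, fell. Tkt stood at 349, 344 and 333 CPM in the KO libraries and 478, 415 and 441 CPM in the WT libraries (log2 fold change -0.38 ± 0.09 (SE), adjusted p = 0.0412). Taldo1 stood at 418, 372 and 335 CPM in the KO libraries and 538, 458 and 606 CPM in the WT libraries (log2 fold change -0.51 ± 0.13 (SE), adjusted p = 0.0481). Neither overlapped between groups, and WT replicate 2 was the lowest WT library for both. Pgd, from the oxidative arm, was not called (-0.22 ± 0.13, adjusted p = 0.259).

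Among genes of oxygen sensing, Hif1a (chr12:73901375-73947530) fell, with 63.8, 61.1 and 66.5 CPM in the KO libraries and 86.1, 74.6 and 87.4 CPM in the WT libraries (log2 fold change -0.37 ± 0.09 (SE), adjusted p = 0.0446). Egln2, a prolyl hydroxylase that marks HIF proteins for VHL, rose, with 81.4, 77.8 and 83.2 CPM in the KO libraries and 62.5, 64.3 and 69.4 CPM in the WT libraries (log2 fold change 0.30 ± 0.08 (SE), adjusted p = 0.0486). Its call held in 4 of 13 alternatives and was lost with DESeq2 size factors (adjusted p = 0.0533), without the filter (0.0527), with a mean of at least 1 CPM (0.0512) and without any 1 of the 6 libraries (0.0578 to 0.158). The groups separated for both, in opposite directions. Egln1, the main oxygen sensor of the family, was not called (log2 fold change 0.36 ± 0.10, adjusted p = 0.0551). Egln3, at no more than 4.73 CPM in any library, was not called (log2 fold change -0.36 ± 0.22, adjusted p = 0.267). Vhl did not separate (0.00 ± 0.11, adjusted p = 0.981).

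None of the 5 HIF targets was called. Vegfa, the vascular growth factor, had 13.5, 13.9 and 14.5 CPM in the KO libraries and 6.20, 11.5 and 9.08 CPM in the WT libraries (log2 fold change 0.65 ± 0.21 (SE), adjusted p = 0.076), with all KO libraries higher. The mitophagy receptors Bnip3 and Bnip3l and the collagen hydroxylase P4ha1 overlapped between groups, with log2 fold changes of -0.07 ± 0.13, -0.08 ± 0.10 and -0.12 ± 0.15. Ankrd37, an ankyrin repeat protein induced by hypoxia, lay between 0.713 and 2.15 CPM over the libraries (log2 fold change -0.77 ± 0.36, adjusted p = 0.167). Of the transporters, Slc2a1, the basal glucose transporter, stood at 72.4, 70.0 and 73.3 CPM in the KO libraries and 44.03, 65.7 and 60.6 CPM in the WT libraries (log2 fold change 0.34 ± 0.14 (SE), adjusted p = 0.134). The lactate carrier Slc16a1 stood at 6.74, 6.30 and 6.85 CPM in the KO libraries and 13.8, 6.98 and 12.1 CPM in the WT libraries (log2 fold change -0.73 ± 0.24 (SE), adjusted p = 0.0793). Neither passed the test, and in both WT replicate 2 was the WT library nearest to KO. Slc2a3 and Slc16a3 were not called either (log2 fold changes -0.05 ± 0.12 and -0.40 ± 0.17).

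In the MYC network, Mxd4 (chr5:34173883-34187720), a partner of MAX that opposes MYC, had the smallest p of the 47, with 284, 314 and 302 CPM in the KO libraries and 193, 215 and 203 CPM in the WT libraries (log2 fold change 0.56 ± 0.08 (SE), adjusted p = 0.0239). Every KO library was above every WT library. Myc itself stood at 92.6, 109.5 and 95.9 CPM in the KO libraries and 123, 105 and 132 CPM in the WT libraries and overlapped between groups (log2 fold change -0.27 ± 0.11 (SE), adjusted p = 0.126). Mxi1, another MAX partner of the same kind, had a value of opposite sign to Mxd4 just outside the threshold (-0.48 ± 0.13, adjusted p = 0.0523). Max was not called (log2 fold change -0.18 ± 0.10, adjusted p = 0.253).

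Npm1, the nucleolar chaperone of ribosome assembly and a MYC target, fell, with 373, 293 and 316 CPM in the KO libraries and 457, 431 and 454 CPM in the WT libraries (log2 fold change -0.45 ± 0.11 (SE), adjusted p = 0.0433). The other two MYC targets were also separate between groups but were not called. Ncl, nucleolin, stood at 457, 466 and 490.3 CPM in the KO libraries and 584, 543 and 554 CPM in the WT libraries (log2 fold change -0.25 ± 0.08 (SE), adjusted p = 0.0789), and Odc1, the first enzyme of polyamine synthesis, at 180.4, 174 and 204 CPM in the KO libraries and 210.3, 229.5 and 256 CPM in the WT libraries (log2 fold change -0.32 ± 0.10 (SE), adjusted p = 0.0765).

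**Figure D3:**
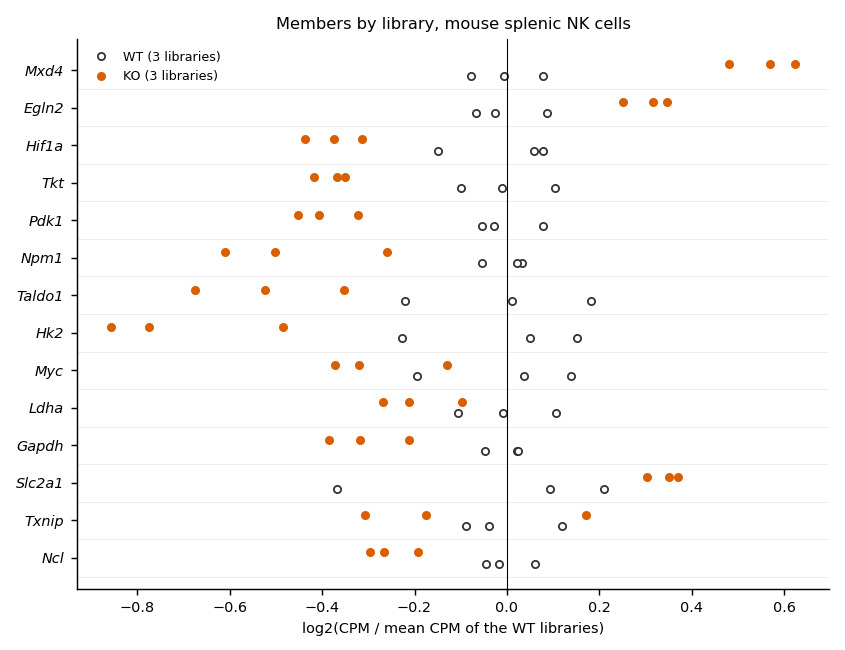
Log2 ratio of each mouse library's CPM to the mean of the 3 WT libraries for the members called in mice, from highest to lowest, followed by 6 members shown whatever their call. KO libraries (filled) lie clear of WT libraries (open) for the 8 called members and overlap them for Myc, Ldha and Txnip.

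Other genes of the same pathways, from lists that do not include the members, gave 4 called higher (5.33%) and 10 called lower (13.3%) of 75 tested in mice, beside 4.44% and 7.43% of all genes. Among other glycolysis genes 3 of 13 were called lower. These included Pklr, the liver and red cell pyruvate kinase, with 1.14, 0.808 and 1.26 CPM in the KO libraries and 9.85, 3.03 and 6.12 CPM in the WT libraries (log2 fold change -2.57 ± 0.42 (SE), adjusted p = 0.0279), and Gpd1, a glycerol phosphate dehydrogenase (-2.05 ± 0.51, adjusted p = 0.0479). Erythroid marker RNA was also lower in every KO library, and its part in the Pklr value was not tested. Pdp1, the phosphatase that reopens pyruvate dehydrogenase, was the 1 of 11 other pyruvate handling genes called, with 16.3, 18.8 and 19.5 CPM in the KO libraries and 11.4, 11.5 and 11.6 CPM in the WT libraries (log2 fold change 0.67 ± 0.11 (SE), adjusted p = 0.0279).

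Of 17 other HIF pathway genes, 2 were called higher and 2 lower, with Hif3a at -1.76 ± 0.34 (adjusted p = 0.0327) and Ndrg1 at -0.56 ± 0.14 (adjusted p = 0.0472). In the wider MYC network 2 of 8 were called, and both were the MYC paralogs Mycn (-0.95 ± 0.18, adjusted p = 0.0327) and Mycl (-0.89 ± 0.22, adjusted p = 0.0454), each lower. Of 20 other MYC targets, 1 was called higher and 3 lower. Slc7a5, the leucine-importing chain of an amino acid exchanger, had 20.2, 19.8 and 20.7 CPM in the KO libraries and 46.4, 32.6 and 38.6 CPM in the WT libraries (log2 fold change -0.95 ± 0.13 (SE), adjusted p = 0.0239), and Tfrc, the transferrin receptor, 23.0, 19.6 and 18.1 CPM in the KO libraries and 45.8, 26.9 and 32.1 CPM in the WT libraries (log2 fold change -0.79 ± 0.20 (SE), adjusted p = 0.0472). Where exons of different genes overlap, counts depend on the counter, and Gpi1, Pfkm, Pkm, Pdha1, Txnip, Bnip3 and Ankrd37 share 10.7 to 26.4% of their exon length with other annotated genes on either strand. Pklr and Gpd1 share 22.0% and 13.0%. None of 6 other pentose phosphate genes was called by edgeR, and H6pd had the smallest adjusted p there (0.064).

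In NK92MI cells, BIX-01294 moved members in both directions. At an adjusted p under 0.05 over 12727 genes, 12 of 45 members rose (26.7%) and 9 fell (20%), beside 18.4% of all genes higher and 18.4% lower. The median log2 fold change of the members was -0.06, against -0.01 over all genes. Against the mean of the DMSO libraries, the median member stood at -0.062, -0.035 and 0.096 (log2) in BIX replicates 1 to 3. In the DMSO libraries it stood at -0.029, 0.052 and -0.027. BIX replicates 1 and 2 thus lay below every DMSO library and BIX replicate 3 above every one. The count of members that fell was 5 without BIX replicate 1 and 11 without BIX replicate 3, fits in which 3491 and 4909 genes of all were called. The groups did not overlap for 25 members, 14 higher and 11 lower, against 24.1% and 23.9% of all genes. At the study's thresholds 3 members (TXNIP, PFKFB3 and BNIP3L) were higher and 1 (EGLN2) was lower, against 6.24% and 5.43% of all genes.

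TXNIP, at chr1:145992435-145996579 (GRCh38, GENCODE v44), changed most. It had 475, 422 and 503 CPM in the BIX libraries and 201, 224 and 228 CPM in the DMSO libraries (log2 fold change 1.10 ± 0.08 (SE), adjusted p = 2.7e-07), a level 114% above that of the controls. PFKFB3 (chr10:6144934-6254644), which makes the strongest activator of phosphofructokinase, had 70.1, 74.5 and 70.1 CPM in the BIX libraries and 38.8, 42.6 and 39.2 CPM in the DMSO libraries (log2 fold change 0.83 ± 0.07 (SE), adjusted p = 2.04e-06). Every BIX library was above every DMSO library for both. PDK1 rose less, with 31.3, 32.6 and 31.5 CPM in the BIX libraries and 24.97, 24.8 and 28.0 CPM in the DMSO libraries (log2 fold change 0.29 ± 0.09 (SE), adjusted p = 0.0186), and was not called without either of 2 DMSO libraries (adjusted p = 0.0844 and 0.0711). PFKFB4, PDK3 and PDHA1 were not called, with log2 fold changes of 0.35 ± 0.21, -0.06 ± 0.07 and -0.17 ± 0.08.

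Of the 4 glucose and lactate transporters, 2 rose and 2 were not called. SLC2A3, the high-affinity glucose transporter of lymphocytes and neurons, had 212, 219 and 209 CPM in the BIX libraries and 155, 149 and 161 CPM in the DMSO libraries (log2 fold change 0.46 ± 0.06 (SE), adjusted p = 6.57e-05), and SLC2A1 had 92.7, 92.4 and 97.2 CPM in the BIX libraries and 96.5, 106 and 98.5 CPM in the DMSO libraries (log2 fold change -0.09 ± 0.07 (SE), adjusted p = 0.289). Per kilobase of exon SLC2A3 made up 67.6, 68.4 and 66.2% against 59.4, 56.1 and 59.9% of the pair in BIX against DMSO libraries, with no overlap. SLC16A1, the proton-linked lactate carrier, rose as well, with 162, 165 and 165 CPM in the BIX libraries and 128, 117 and 126 CPM in the DMSO libraries (log2 fold change 0.41 ± 0.06 (SE), adjusted p = 0.000185), and SLC16A3 was near the floor at 0.714 CPM in BIX and 0.977 CPM in DMSO.

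In upper glycolysis 5 of 9 members fell and none rose. HK1 had 104, 103 and 113 CPM in the BIX libraries and 129, 139.7 and 127 CPM in the DMSO libraries (log2 fold change -0.30 ± 0.07 (SE), adjusted p = 0.00315), and HK2 had 99.0, 99.7 and 98.8 CPM in the BIX libraries and 121, 119.8 and 109.7 CPM in the DMSO libraries (log2 fold change -0.24 ± 0.06 (SE), adjusted p = 0.0108). Both hexokinases fell, and the share of HK2 per kilobase overlapped between groups, at 52.6, 52.8 and 50.3% against 52.1, 49.9 and 50.2%. PFKL, the liver-type phosphofructokinase, stood at 106, 99.8 and 114 CPM in the BIX libraries and 139, 147 and 129 CPM in the DMSO libraries (log2 fold change -0.37 ± 0.07 (SE), adjusted p = 0.00128), PFKP at 139, 142 and 143 CPM in the BIX libraries and 178, 188 and 182 CPM in the DMSO libraries (log2 fold change -0.37 ± 0.06 (SE), adjusted p = 0.000321). GPI stood at 392, 385 and 432 CPM in the BIX libraries and 446, 505 and 466 CPM in the DMSO libraries (log2 fold change -0.23 ± 0.07 (SE), adjusted p = 0.0175). All 5 were below the controls in every BIX library, and HK2 and GPI lost their call when BIX replicate 1 or certain DMSO libraries were left out (largest adjusted p = 0.0657 and 0.0977).

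PFKM, the muscle type and the scarcest of the 3 phosphofructokinases, was not called (log2 fold change 0.30 ± 0.14, adjusted p = 0.103). Its share per kilobase was 4.19, 4.17 and 4.13% against 2.65, 2.87 and 2.44% in BIX against DMSO. The aldolases were counted at low levels and were not called, ALDOA at -0.55 ± 0.24 (adjusted p = 0.086) and ALDOC at 0.41 ± 0.22 (adjusted p = 0.157). ALDOA, the main aldolase of most cells, had only 3.28 CPM in DMSO, and 42.8% of its exon length is shared with exons of another annotated gene on the same strand, so its count is uncertain.

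In lower glycolysis, 1 member rose and 1 fell of 8. PKM, a pyruvate kinase, had 4469, 4195 and 4738 CPM in the BIX libraries and 3526, 3716 and 3514 CPM in the DMSO libraries (log2 fold change 0.32 ± 0.06 (SE), adjusted p = 0.00106). ENO1, enolase, had 2062, 1948 and 2299 CPM in the BIX libraries and 2383, 2669.8 and 2339 CPM in the DMSO libraries (log2 fold change -0.23 ± 0.07 (SE), adjusted p = 0.0238), a call lost without BIX replicate 1 (adjusted p = 0.104) or 1 DMSO library (adjusted p = 0.116). Per kilobase, PKM stood at 521 ± 31.6 CPM per kilobase in BIX against 418 ± 13.2 in DMSO, and ENO1 at 403 ± 34.3 against 472 ± 34.4 (SD, n = 3). By this measure PKM was the lower of the pair in DMSO and the higher in BIX. That order rests on the union exon lengths used, 8572 bases for PKM and 5216 for ENO1.

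GAPDH and LDHA, also of lower glycolysis, overlapped between groups. GAPDH stood at 1361, 1214 and 1459 CPM in the BIX libraries and 1342, 1572 and 1436 CPM in the DMSO libraries (log2 fold change -0.11 ± 0.08 (SE), adjusted p = 0.29), and LDHA at 1348, 1276 and 1407 CPM in the BIX libraries and 1315, 1406 and 1351 CPM in the DMSO libraries (log2 fold change -0.01 ± 0.06 (SE), adjusted p = 0.871). The log2 fold change of LDHA was within 2 SE of 0 and turned positive when BIX replicate 2 or 1 DMSO library was left out. TPI1, PGK1 and PGAM1 lay between -0.09 and 0.04 and were not called. ENO2 and LDHB were counted at no more than 1.95 CPM in any library and were not called (log2 fold changes -0.45 ± 0.63 and -0.82 ± 0.35), and 33.4% of the exon length of LDHB is shared with another gene.

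TKT was the member of the pentose phosphate pathway that fell, with 119, 107 and 134 CPM in the BIX libraries and 149.9, 142 and 142 CPM in the DMSO libraries (log2 fold change -0.27 ± 0.08 (SE), adjusted p = 0.0156). Its call was lost without BIX replicate 1 (adjusted p = 0.0694) or 1 DMSO library (adjusted p = 0.0681). PGD and TALDO1 were not called (-0.06 ± 0.07 and -0.06 ± 0.08).

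**Figure D4:**
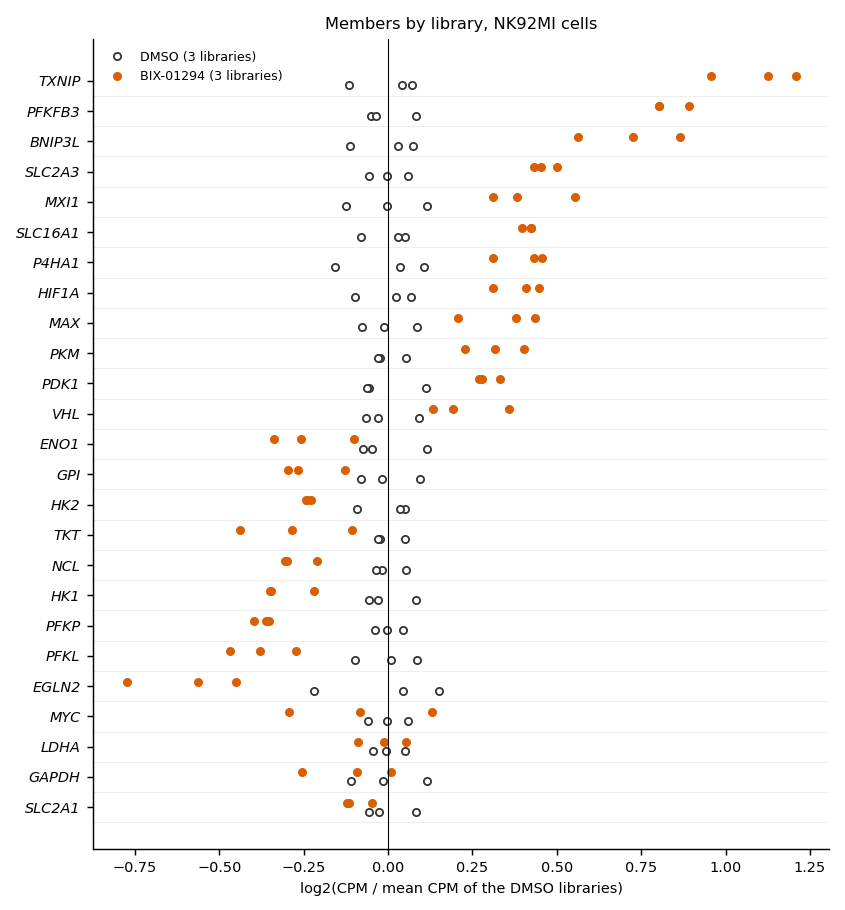
Log2 ratio of each NK92MI library's CPM to the mean of the 3 DMSO libraries for the 21 members called under BIX-01294, from highest to lowest, followed by 4 members shown whatever their call. TXNIP and PFKFB3 lie farthest to the right, EGLN2 farthest to the left, and MYC, LDHA, GAPDH and SLC2A1 overlap the control libraries.

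Oxygen sensing genes moved under the inhibitor too. HIF1A (chr14:61695513-61748259) rose, with 234, 241 and 219 CPM in the BIX libraries and 185, 165 and 179.6 CPM in the DMSO libraries (log2 fold change 0.39 ± 0.07 (SE), adjusted p = 0.00051). VHL was called higher with the largest p of the 12 that rose (0.23 ± 0.08, adjusted p = 0.0273), and its call was lost without BIX replicate 1 or 3 (adjusted p = 0.0549 and 0.0756) and without either of 2 DMSO libraries (adjusted p = 0.127 and 0.103). EGLN2 fell, with 6.70, 7.76 and 8.38 CPM in the BIX libraries and 9.84, 11.8 and 12.7 CPM in the DMSO libraries (log2 fold change -0.59 ± 0.14 (SE), adjusted p = 0.00563), from a low level, and 30.6% of its exon length is shared with the readthrough gene RAB4B-EGLN2, so its count is uncertain. The strand setting of the counting is not given in the sources used here, and HIF1A, MAX and VHL share 11.3%, 16.1% and 23.5% of their exon length with genes on either strand. EGLN1 was not called (0.23 ± 0.16, adjusted p = 0.264) and shares 55.8% of its exon length with another gene.

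Of the 4 HIF targets measured, 2 rose. BNIP3L, a mitophagy receptor, had 37.0, 33.6 and 29.9 CPM in the BIX libraries and 20.7, 18.8 and 21.4 CPM in the DMSO libraries (log2 fold change 0.72 ± 0.10 (SE), adjusted p = 0.00011). P4HA1, a subunit of collagen prolyl hydroxylase, had 26.9, 24.7 and 27.3 CPM in the BIX libraries and 20.4, 21.5 and 17.9 CPM in the DMSO libraries (log2 fold change 0.40 ± 0.10 (SE), adjusted p = 0.00649). All BIX libraries lay above all DMSO libraries for both. BNIP3 was counted at 2.48 and 2.99 CPM in BIX and DMSO and has 44 named pseudogenes in the annotation, so reads could be lost to copies, and it was not called (adjusted p = 0.413). ANKRD37 was not called (log2 fold change 0.38 ± 0.20, adjusted p = 0.151).

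MYC did not separate, with 51.4, 44.5 and 59.7 CPM in the BIX libraries and 54.5, 56.9 and 52.3 CPM in the DMSO libraries (log2 fold change -0.07 ± 0.10 (SE), adjusted p = 0.6). The BIX libraries spread more widely than the DMSO libraries, and BIX replicate 2 was the lowest of the 6. Its partner MAX rose, with 97.8, 86.8 and 102 CPM in the BIX libraries and 71.3, 74.6 and 79.8 CPM in the DMSO libraries (log2 fold change 0.34 ± 0.08 (SE), adjusted p = 0.00311). MXI1, which competes with MYC for MAX, rose as well, with 36.2, 30.6 and 32.1 CPM in the BIX libraries and 26.7, 22.6 and 24.6 CPM in the DMSO libraries (log2 fold change 0.42 ± 0.10 (SE), adjusted p = 0.00449). MXD4, which had the smallest p of the members in mice, was at 20.1, 24.8 and 25.4 CPM in the BIX libraries and 23.3, 23.7 and 21.9 CPM in the DMSO libraries (log2 fold change 0.03 ± 0.11 (SE), adjusted p = 0.862).

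NCL fell, with 1331, 1327 and 1416 CPM in the BIX libraries and 1619, 1701 and 1598 CPM in the DMSO libraries (log2 fold change -0.27 ± 0.06 (SE), adjusted p = 0.00238), and every BIX library was below every DMSO library. NPM1 (-0.12 ± 0.07, adjusted p = 0.204) and ODC1 (0.06 ± 0.07, adjusted p = 0.54) were not called. NPM1 has 49 named pseudogenes and GAPDH 65, so the counts of both may be incomplete.

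Of 65 other pathway genes tested in NK92MI, 15 were called higher and 15 lower, or 23.1% each way, beside 18.4% of all genes higher and 18.4% lower. The HIF pathway list had 6 higher and 3 lower of 13. BHLHE40, a repressor induced by hypoxia, had 1483, 1372 and 1578 CPM in the BIX libraries and 675, 728 and 689.6 CPM in the DMSO libraries (log2 fold change 1.08 ± 0.07 (SE), adjusted p = 7.51e-08). Other MYC targets had 3 higher and 6 lower of 20. SLC3A2, the heavy chain of amino acid exchangers, had 377, 366 and 472 CPM in the BIX libraries and 131, 149 and 131 CPM in the DMSO libraries (log2 fold change 1.57 ± 0.09 (SE), adjusted p = 7.16e-08), and EIF4A1, an RNA helicase of translation initiation, had a log2 fold change of -0.94 ± 0.15 (adjusted p = 0.000289) with 47.4% of its exon length shared with another gene.

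Other glycolysis genes had 4 called higher and 1 lower of 9. TIGAR, which drains the phosphofructokinase activator, had 24.5, 28.5 and 24.5 CPM in the BIX libraries and 11.6, 10.7 and 10.1 CPM in the DMSO libraries (log2 fold change 1.26 ± 0.11 (SE), adjusted p = 1.79e-06), and GPD2, the mitochondrial glycerol phosphate dehydrogenase, 19.1, 18.05 and 16.2 CPM in the BIX libraries and 40.4, 35.5 and 37.1 CPM in the DMSO libraries (log2 fold change -1.08 ± 0.10 (SE), adjusted p = 2.24e-06). In the wider MYC network, 2 of 6 fell, MXD3 (-1.09 ± 0.10, adjusted p = 3.13e-06) and MLX (-0.39 ± 0.07, adjusted p = 0.00046). MXD3 and TIGAR share 43.7% and 19.4% of their exon length with other genes on either strand. Other pentose phosphate genes had 1 called higher and 2 lower of 7, among them PGLS, a lactonase of the oxidative arm, which fell (log2 fold change -0.43 ± 0.13, adjusted p = 0.0169). MPC2, a subunit of the mitochondrial pyruvate carrier, rose (0.51 ± 0.10, adjusted p = 0.00129) and PDHB, a subunit of pyruvate dehydrogenase, fell (-0.39 ± 0.09, adjusted p = 0.00319), the 2 calls among 10 other pyruvate handling genes. MPC2 shares 21.8% of its exon length with other genes on either strand.

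**Figure D5:**
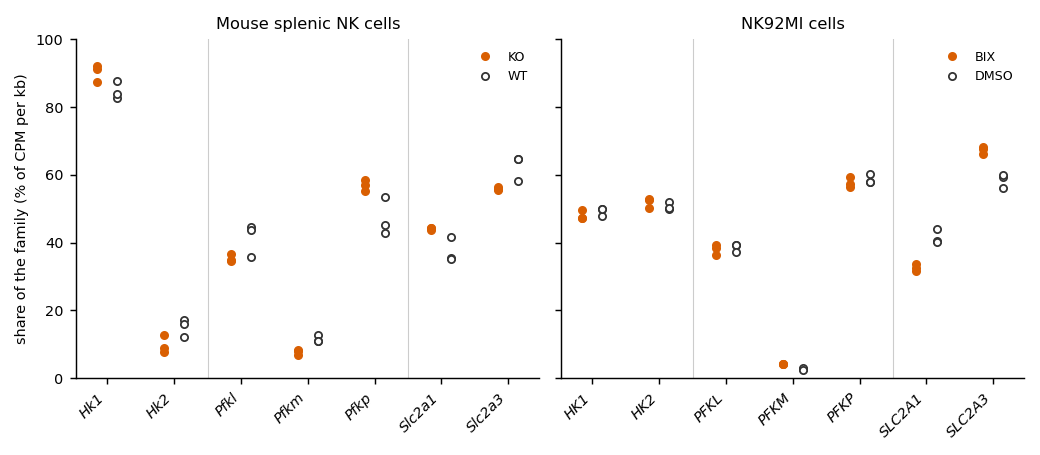
Share of each hexokinase, phosphofructokinase and glucose transporter in the sum of its family, in percent of CPM per kilobase of exon, by library, with treated or KO libraries filled and controls open. SLC2A3 gained share under BIX-01294 in NK92MI while Slc2a3 lost share in KO mouse cells, and in both the 3 libraries of one group lie apart from those of the other. Neither Slc2a1 nor Slc2a3 was called in mice. The Slc2a3 share in WT replicate 2 (58.2%) lay near those of the KO libraries (55.5, 56.3 and 55.8%).

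Set side by side, the deletion in mice and the inhibitor in NK92MI moved some members the same way and others in opposite ways. Of the 45 members tested in both, 24 (53.3%) had log2 fold changes of the same sign, against 49.4% of 8791 genes sharing a symbol. In all, 5 members were called in both experiments. HK2 and TKT were lower in both, HIF1A and PDK1 were lower in KO mouse cells and higher with BIX-01294, and EGLN2 was higher in KO, in a call that most alternatives lost, and lower with BIX-01294. Of all 387 genes called in both, 48.6% had the same direction. The experiments differ in species, cell source and means of losing EHMT2 activity, and these differences cannot be told apart.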

How the data were processed

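RNA was measured by poly(A) RNA-seq in 6 mouse and 6 human libraries. Per the study's methods and the submitters' processing notes, the authors trimmed reads with fastp 0.23.4, aligned them with STAR 2.7.11b (at most 2 mismatches) to GRCm38 or GRCh38, counted reads per gene with HTSeq 2.0.3 and used DESeq2. The annotation release and strand setting are not given in the sources used here. The deposited files hold raw counts per gene, unnormalized. Gene counting leaves out reads that fit several genes, so members with near-identical copies or overlapping exons can be undercounted.

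From these counts, each species was fitted on its own over all genes passing edgeR's filterByExpr (edgeR 4.0.16, TMM, quasi-likelihood test, R 4.3.3), with Benjamini-Hochberg adjustment over all genes tested and a threshold of 0.05. CPM values are TMM-normalized. Standard errors come from the fitted model with its quasi-likelihood variance. Levels of different genes were compared only per kilobase of union exon length from GENCODE vM21 or v44, which may not be the authors' release. Total counts were 16579469 to 37438868 per library, and a member near 1 CPM has few reads behind it. Precision also depends on the spread between libraries of a group. The common coefficient of variation that edgeR estimated for it was 18.18% in mice and 7.555% in NK92MI. The code was tested on simulated data.

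Values are given per library for members called (at most the 20 with the smallest p in each comparison) and always for HIF1A, MYC, LDHA, GAPDH, HK2, SLC2A1, TXNIP and NCL. Vegfa, Pfkp, Gpi1, Hk1, Slc16a1, Odc1 and MXD4 were given per library, and H6pd was named, after their values were seen. In each other pathway list the 2 called genes with the largest change are named, apart from results that are not reported here. Adpgk, Bhlhe40 and the remaining called genes of those lists are counted only. The members and all lists were chosen with earlier results of these data known. Alternatives were DESeq2 size factors, library totals, no filter, a mean of at least 1 CPM, DESeq2 1.42.0, limma-voom (limma 3.58.1), other thresholds, leaving out each library, and the replicate number as a block. DESeq2 with the study's thresholds, and the block and left-out libraries for the median, were added after seeing the data.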

Additional observations from a re-analysis of the deposited data

How the results depend on the processing

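Calls in mice depended on single libraries. Members called higher numbered 1 with DESeq2 size factors and with a mean of at least 1 CPM, 5 with DESeq2, 0 at the study's thresholds and 5 at an adjusted p under 0.1, against 2 in the main test, and 0 to 5 when 1 library was left out. Members called lower numbered 14 with DESeq2, 0 at the study's thresholds, 3 with DESeq2 at those thresholds and 14 at an adjusted p under 0.1, against 6, and 0 to 12 when 1 library was left out. With the replicate number as a block, 5 were higher and 13 lower. Calls over all genes moved too, from 585 higher and 980 lower to 3092 in all with DESeq2 and 3222 in all with the block. They numbered 1546 in all with DESeq2 size factors and 1538 in all with a mean of at least 1 CPM. Leaving out 1 library gave 0 to 3530 genes of all. How many of all genes passed an adjusted p under 0.1 was not counted, so the member counts there have no share beside them. The deviations of same-numbered KO and WT libraries from their group means correlated at 0.281, 0.352 and -0.188 over genes. Those of differently numbered libraries correlated at -0.436 to 0.284. Deviations from the mean of 3 libraries depend on each other, so these values cannot decide whether the numbers mark pairs. In NK92MI, 3 members were higher and 1 lower at the study's thresholds, with edgeR and with DESeq2. Leaving out 1 library gave 10 to 12 higher and 5 to 11 lower, among 3491 to 5021 genes of all called. Over all genes, DESeq2 at the study's thresholds called 801 higher and 650 lower. No paired analysis was made there, because the control columns are named CON while the labels say DMSO, and they were not matched to single samples. The cause of these shifts was not tested.

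The median over the members kept its sign in each setting. In NK92MI it lay between -0.075 and -0.002, the latter without BIX replicate 2. No called member changed sign. Among members not called, the sign turned for Pdha1 with library totals (0.001) and without the filter (0.002), and for Vhl with DESeq2 size factors (-0.007), a mean of at least 1 CPM (-0.006), DESeq2 (-0.005) and limma-voom (-0.005). When 1 library was left out in turn it also changed for these members, whose log2 fold changes then ran from -0.152 to 0.078 (Slc2a3), -0.036 to 0.155 (Hk1), -0.035 to 0.024 (Eno1), -0.046 to 0.038 (Pdha1), -0.24 to 0.011 (Txnip), -0.075 to 0.087 (Vhl), -0.22 to 0.078 (P4ha1), -0.017 to 0.101 (PGAM1), -0.843 to 0.06 (ENO2), -0.044 to 0.026 (LDHA), -0.147 to 0.017 (TALDO1), -0.181 to 0.032 (MYC) and -0.028 to 0.133 (MXD4).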
